A study of Mus musculus with 6 samples.

Results

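The 9 genes that carry or tune the Notch signal and are described here were measured in sorted cells of the mouse retina: the transcriptional repressors Hes1, Hey1, Hey2 and Heyl, the feedback inhibitor Nrarp, the DNA-binding factor Rbpj, and the fringe glycosyltransferases Lfng, Mfng and Rfng. They were chosen by symbol, and all 9 were found among the 19124 gene symbols of the deposited table and were among the 16217 genes tested. All pups were of the C57BL/6 strain, carried Rnf20p/p on both genotype labels, and received 75 µg of Z-4-HO-Tamoxifen daily from postnatal day 1 to day 4. The 3 pups of the Ctrl group were Pdgf{beta}CreERT2neg and the 3 of the KO group Pdgf{beta}CreERT2pos, the latter carrying a recombinase activated by tamoxifen. Retinas were digested at day 7 and cells with CD31, a surface protein of endothelium and platelets, were sorted, with a different pup for each library. Which exons of Rnf20 the recombinase removes is not stated in the labels. The series title places the question in VEGF and Notch signalling of sprouting vessels.

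Notch is a receptor that is cut when a ligand on a neighbouring cell binds it, and its freed intracellular part joins Rbpj on DNA to switch on target genes. Hes and Hey proteins are the classical targets and repress further genes, while Nrarp is a target that limits Notch signalling in return. Fringes lengthen the fucose sugars on the receptor in the Golgi, which changes how it answers Delta-like and Jagged ligands. In growing retinal vessels the ligand Dll4 on tip cells activates Notch in the stalk cells behind them, where it holds back sprouting.

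Libraries held 14581701 to 30692948 counts, and the members 183 to 10136 counts per library. Levels are CPM (counts scaled to a common library total) after TMM scaling, and changes are log2 fold changes of KO over Ctrl from the quasi-likelihood F test of edgeR, with p-values adjusted over all genes tested by the Benjamini-Hochberg method. With 3 against 3 libraries the exact two-sided permutation test cannot go below p = 0.1. Rnf20 itself was at 53.9 ± 5.18 CPM (SD, n = 3) in Ctrl, against 33.9 ± 4.48 CPM in KO, with no overlap, and did not pass the test (log2 fold change −0.67, adjusted p = 0.101). Its partner Rnf40, with which it forms the ubiquitin ligase of a core histone, was at −0.44 (adjusted p = 0.374). Rnf20 passed in 2 of 15 alternatives, both with the edgeR test. It was −1.99 (adjusted p = 0.00193) with libraries scaled to equal endothelial markers, where 52.0% of genes tested were called lower. Without KO 1 it was −0.71 (adjusted p = 0.0373), where 14.5% were called lower. Rnf40 was −1.86 (adjusted p = 0.00549) under the same endothelial scaling. Marker RNA of the sorted cells was not equal between the groups. Of 15 endothelial markers 11 rose and 0 fell, and their summed level was 3194 to 4996 CPM in Ctrl and 10314 to 14764 CPM in KO. The 14 photoreceptor markers, which sorted endothelium should lack, summed to 19695 to 35277 CPM in Ctrl and 4964 to 24204 CPM in KO, with 0 up and 2 down. Red cell and platelet markers summed to 57.7 to 89.2 CPM in Ctrl and 412 to 580 CPM in KO (5 of 7 tested rose, with Hba-a1 and Hba-a2 at identical values in every library and thus 1 measurement counted again), and microglia markers to 302 to 1944 CPM and 298 to 15430 CPM (0 of 14 passed, highest in KO 2). Of 12 inner neuron markers tested 2 rose and 3 fell, and of 8 progenitor markers 1 rose. In these bulk samples a smaller share of a cell type and less RNA per cell cannot be told apart.

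Of the 9 genes, 1 rose and 0 fell in KO, where 10.3% of all genes tested passed, 5.85% higher and 4.44% lower. The one that passed was Mfng, at 2.09 times its Ctrl mean, and its estimate turned negative (−0.31) where libraries were scaled to equal endothelial markers. An unadjusted p below 0.05 was found for 3 of them, Mfng, Nrarp and Hes1, and for 30.5% of all genes tested, which is near the share among the 9. In 4 genes every KO library was above every Ctrl library (Hes1, Hey1, Nrarp, Mfng; endothelial scaling turned the estimates of all but Nrarp), and in 1 every KO library was below (Hey2), against 19.0% and 18.9% of all genes tested. The median log2 fold change of the 9 was 0.50, beside 0.03 for all genes tested. Of the 9 estimates 5 were positive, and the plot of levels by library shows each pattern.

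**Figure D1:**
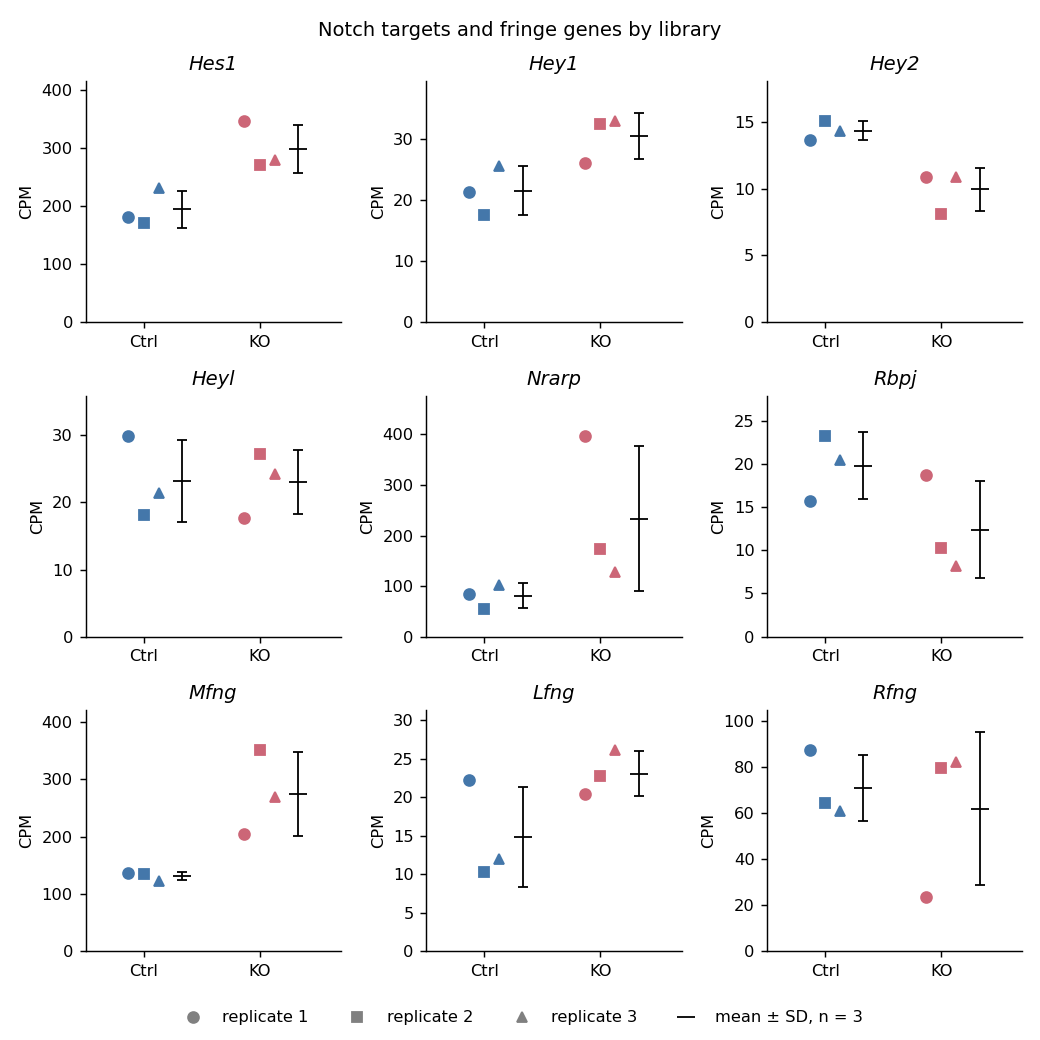
Level of each gene in CPM (scaled counts, vertical axis, from 0) in the 3 Ctrl (blue) and 3 KO (red) libraries, with the mean and SD beside them. All KO libraries lie above all Ctrl libraries for Hes1, Hey1, Nrarp and Mfng and below them for Hey2, and groups overlap for Heyl, Rbpj, Lfng and Rfng. Scaling to endothelial markers turns the estimates of Hes1, Hey1 and Mfng negative.

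Hes1 (NM_008235, chromosome 16, 30065357 to 30067796, GRCm38.p6) encodes a basic helix-loop-helix repressor that Notch induces in many cell types and that keeps progenitors and glia undifferentiated. It stood at 181, 171 and 230 CPM in Ctrl 1 to 3, against 346, 270 and 279 CPM in KO 1 to 3. Every KO library was above every Ctrl library, and the log2 fold change was 0.62 ± 0.241 (SE), with a 95% interval of 0.07 to 1.18 before adjustment. It did not pass the edgeR test (adjusted p = 0.129), and it was −0.71 with libraries scaled to endothelial markers. Müller glia also make Hes1. Of 12 markers of Müller glia and astrocytes 4 rose (Glul, Pax2, Vim and S100b), with a summed level of 2298 to 3030 CPM in Ctrl and 2775 to 17271 CPM in KO and Aqp4 at 0 in KO 1. Another 5 of the 12 had negative estimates that did not pass, among them Rlbp1 (−0.11), Slc1a3 (−0.39) and Sox9 (−0.35), and Apoe, which microglia also make, gave 14882 CPM of the KO 2 sum. Their part in the Hes1 values was not tested.

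Hey1 and Hey2 encode sister repressors of endothelium and heart that act as partners of each other. Hey1 (NM_010423, chromosome 3, 8663359 to 8667038) was at 21.3, 17.5 and 25.6 CPM in Ctrl 1 to 3, against 26.1, 32.5 and 32.9 CPM in KO 1 to 3. The groups did not overlap, though KO 1 lay only just above Ctrl 3, and the change of 0.50 ± 0.270 (SE) did not pass (adjusted p = 0.242, 95% interval −0.12 to 1.13) and became −0.84 under endothelial scaling. Hey2 (NM_013904, chromosome 10, 30832359 to 30842783) went the other way, at 13.6, 15.1 and 14.3 CPM in Ctrl 1 to 3, against 10.9, 8.09 and 10.9 CPM in KO 1 to 3. Each KO library was below each Ctrl library, and the log2 fold change of −0.53 ± 0.292 (SE) did not pass (adjusted p = 0.259, 95% interval −1.20 to 0.15). Hey2 was negative in all 15 alternatives and passed in 1 of them, endothelial scaling (−1.85, adjusted p = 0.00479), where 52.0% of all genes tested were called lower. The genomic span of each of the 2 genes overlaps 1 RefSeq gene model that the deposited table does not list by symbol. Reads from shared sequence could be counted with Hey1 or Hey2, and whether exons overlap was not tested.

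Heyl (NM_013905, chromosome 4, 123233556 to 123249870), a Hey relative found in pericytes and arterial smooth muscle as well as endothelium, had the estimate nearest 0. It was at 29.9, 18.1 and 21.4 CPM in Ctrl 1 to 3, against 17.8, 27.2 and 24.2 CPM in KO 1 to 3. The groups overlapped throughout, with a log2 fold change of −0.0073 ± 0.310 (SE, adjusted p = 0.990), and the 95% interval of −0.72 to 0.70 leaves changes of that size in either direction possible. Its sign turned in 6 of 15 alternatives. Of 12 pericyte and smooth muscle markers only Des passed (up), 12 of 12 estimates were positive, and their summed level was 141 to 828 CPM in Ctrl and 350 to 819 CPM in KO.

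Nrarp (NM_025980, chromosome 2, 25180758 to 25183339), which encodes a small ankyrin-repeat protein that binds the Notch intracellular part and promotes its loss, had the largest estimate of the 9. It was at 85.3, 55.2 and 103 CPM in Ctrl 1 to 3, against 397, 174 and 129 CPM in KO 1 to 3. All KO libraries were above all Ctrl libraries, but KO 1 was far above the other KO libraries, so the SD of KO was 144 around a mean of 233 CPM. The log2 fold change of 1.52 ± 0.454 (SE, 95% interval 0.48 to 2.57) did not pass the edgeR test (adjusted p = 0.0673). Without KO 1 it was smaller and passed (0.97, adjusted p = 0.0434; 15.2% of genes were then called higher), and DESeq2 called it with all libraries (1.55, adjusted p = 0.00840), where 12.6% of genes were called higher. It was 0.15 (adjusted p = 0.810) under endothelial scaling. KO 1 was also the library with the lowest photoreceptor sum, 4964 CPM, and the part of this in the Nrarp value was not tested.

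Rbpj (NM_001080928, chromosome 5, 53555779 to 53657445), the factor through which Notch reaches its targets, had a negative estimate. It was at 15.7, 23.2 and 20.5 CPM in Ctrl 1 to 3, against 18.7, 10.3 and 8.16 CPM in KO 1 to 3. KO 2 and KO 3 were below every Ctrl library, while KO 1 fell within the Ctrl range. The log2 fold change was −0.68 ± 0.382 (SE, adjusted p = 0.266, 95% interval −1.55 to 0.20), and −1.03 without KO 1, where it passed (adjusted p = 0.0389) as 14.5% of genes did in that direction. With offsets for GC content it was −0.26 (adjusted p = 0.469), and under endothelial scaling lower still (adjusted p = 0.00350). RefSeq lists 3 pseudogenes of Rbpj, none under its symbol in the deposited table, so its counts are uncertain where reads match several places.

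Promoter letters of Notch targets are shown because Rbpj reads a short core in DNA and Hes and Hey proteins bind E-box type sites. RefSeq promoters (GRCm38.p6) were at hand for 5 of the 9 genes, Nrarp, Hey2, Lfng, Rbpj and Rfng. Windows run from 250 bases before the start site through the first 20 bases from it, 5′ to 3′ on the gene's strand. Capitals mark the Rbpj core TGGGAA or its reverse complement TTCCCA, and the E-box CACGTG, which reads alike on both strands. The 3 shown are the gene with the largest estimate, the Hey gene that was lower in KO, and a fringe. Nrarp is chr2:25180508-25180777 (plus strand), Hey2 chr10:30842764-30843033 (minus strand) and Lfng chr5:140607091-140607360 (plus strand).
Nrarp: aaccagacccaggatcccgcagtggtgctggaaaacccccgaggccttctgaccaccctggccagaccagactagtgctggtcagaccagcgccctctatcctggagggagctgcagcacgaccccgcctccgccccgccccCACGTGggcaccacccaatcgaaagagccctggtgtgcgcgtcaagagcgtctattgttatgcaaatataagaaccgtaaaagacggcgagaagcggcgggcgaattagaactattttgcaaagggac
Hey2: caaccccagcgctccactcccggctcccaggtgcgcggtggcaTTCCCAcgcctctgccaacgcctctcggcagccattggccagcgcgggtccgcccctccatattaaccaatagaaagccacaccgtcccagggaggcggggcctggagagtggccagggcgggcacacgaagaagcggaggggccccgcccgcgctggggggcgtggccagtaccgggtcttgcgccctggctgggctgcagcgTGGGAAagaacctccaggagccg
Lfng: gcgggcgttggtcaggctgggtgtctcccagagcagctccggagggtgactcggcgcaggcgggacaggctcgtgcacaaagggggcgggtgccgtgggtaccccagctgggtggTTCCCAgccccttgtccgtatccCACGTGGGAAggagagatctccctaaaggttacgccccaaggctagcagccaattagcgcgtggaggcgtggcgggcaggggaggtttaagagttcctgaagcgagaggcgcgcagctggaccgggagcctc
The Nrarp window held 1 E-box, starting 108 bases before the start site, and no Rbpj core. In the Hey2 window 2 Rbpj cores began 207 and 3 bases before the start site. The Lfng window held 2 Rbpj cores, beginning 135 and 108 bases before the start site, and the nearer one shares its first letters with an E-box. The Rbpj entries gave 2 overlapping windows that lie inside the counted Rbpj entry, downstream of its start, and held 2 cores between them, and the Rfng window held none. Among 32851 RefSeq promoter windows of this length 23.1% held the Rbpj core and 6.57% the E-box. These matches describe letters only.

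The fringes differed from each other. Mfng (NM_008595, chromosome 15, 78755882 to 78773516), a fringe made in endothelium and blood cells among others, was at 136, 135 and 123 CPM in Ctrl 1 to 3, against 204, 350 and 269 CPM in KO 1 to 3. The Ctrl libraries lay close together and every KO library was above them. Mfng rose with a log2 fold change of 1.06 ± 0.264 (SE, 95% interval 0.46 to 1.67) and passed the edgeR test (adjusted p = 0.0433), although endothelial scaling gave −0.31 (adjusted p = 0.513). The call was close to the threshold. In the edgeR test it was lost with GC offsets (0.54, adjusted p = 0.0874) and with no filter on low counts (1.06, adjusted p = 0.0504). It was also lost in that test without Ctrl 1, Ctrl 2, Ctrl 3, KO 2 or KO 3 (1.09, 1.08, 1.01, 0.87 and 1.14, with adjusted p = 0.120, 0.169, 0.181, 0.129 and 0.0768). Without Ctrl 1, Ctrl 2, Ctrl 3 or KO 2 no gene of the whole table passed, so those losses are not particular to Mfng. The call held without KO 1 (1.31, adjusted p = 0.00718 in the edgeR test), where 15.2% of genes were called higher. The 15 endothelial markers, of which 11 passed, had a median log2 fold change of 1.45.

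Lfng (NM_008494, chromosome 5, 140607341 to 140615545), the fringe of somite and retinal progenitor patterning, was at 22.3, 10.3 and 11.9 CPM in Ctrl 1 to 3, against 20.3, 22.7 and 26.1 CPM in KO 1 to 3. Ctrl 1 reached the KO range while Ctrl 2 and Ctrl 3 were below it. The log2 fold change was 0.63 ± 0.357 (SE, adjusted p = 0.265, 95% interval −0.19 to 1.46), 1.05 without Ctrl 1, and −0.80 under endothelial scaling. Rfng (NM_009053, chromosome 11, 120780745 to 120784251), a broadly expressed fringe, was at 87.3, 64.4 and 61.1 CPM in Ctrl 1 to 3, against 23.6, 79.7 and 82.4 CPM in KO 1 to 3. KO 1 alone was low, and the others overlapped. The log2 fold change was −0.20 ± 0.448 (SE, adjusted p = 0.799, 95% interval −1.23 to 0.83), 0.26 without KO 1, and −0.91 with GC offsets (adjusted p = 0.0622). Its transcript holds 59.9% GC, the highest of the 9, against 42.9% in Rbpj, the lowest.

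**Figure D2:**
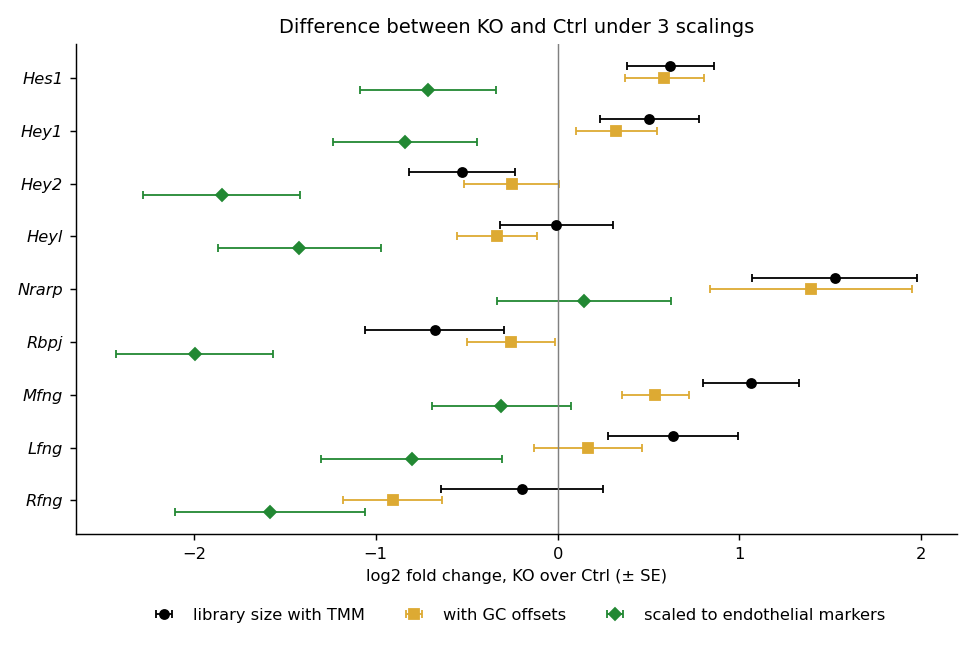
Log2 fold change of KO over Ctrl (horizontal axis) with its standard error for each gene, under library size with TMM (black circles), with GC offsets (yellow squares) and with libraries scaled to equal endothelial markers (green diamonds). Mfng sits at 1.06, 0.54 and −0.31, and Nrarp at 1.52, 1.39 and 0.15. Hey2 and Rbpj are below 0 under all 3.

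The scale decides the direction for several of these genes, so each library was also read relative to its own endothelial markers (log2 CPM of the gene minus the mean log2 CPM of the 15 markers). On that scale Nrarp was 0.07 higher in KO, at −0.46, −1.68 and −0.79 in Ctrl 1 to 3, against 0.02, −1.33 and −1.40 in KO 1 to 3, with the groups overlapping (exact permutation p = 1). Mfng, at a difference of −0.30, overlapped too (exact permutation p = 0.6), as did Lfng at −0.61 (exact permutation p = 0.5). The other 6 were lower in every KO library than in every Ctrl library (exact permutation p = 0.1 each, the smallest possible). These were Rbpj (−2.07), Hey2 (−1.86), Rfng (−1.71), Heyl (−1.32), Hey1 (−0.81) and Hes1 (−0.70). Of all genes tested 63.1% did the same and 1.64% did the opposite, so 6 of 9 lower is near the background. The median log2 fold change over all genes was −1.32 under the fit with this scaling, in which 4 of the 9 passed as lower (Hey2, Heyl, Rbpj and Rfng), beside 52.0% of all genes lower and 0.425% higher. In that fit 69 genes were higher and 8425 lower, against 948 and 720 with library size.

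**Figure D3:**
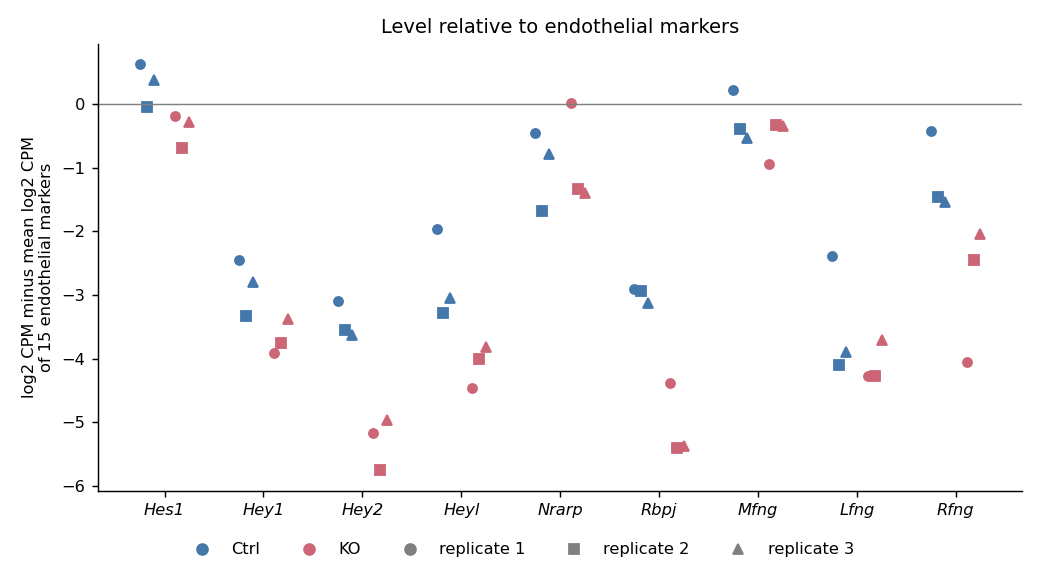
Log2 CPM of each gene minus the mean log2 CPM of 15 endothelial markers of the same library (vertical axis), for Ctrl (blue) and KO (red), with 1 marker shape per replicate number. Nrarp, Mfng and Lfng overlap between groups, and the other 6 genes are lower in each KO library.

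Ratios between genes of 1 library do not depend on how libraries are scaled, but they can move with the makeup of the sorted cells and with GC content. In all 10 such ratios were formed within roles, after the values had been seen, and are given with no test. Mfng over Rfng was 1.56, 2.09 and 2.01 in Ctrl 1 to 3, against 8.64, 4.39 and 3.26 in KO 1 to 3. The photoreceptor markers summed to 4964, 10268 and 24204 CPM in those KO libraries, the reverse order of the ratio. In Ctrl 1 to 3 they summed to 35277, 19695 and 22586 CPM, also the reverse order within that group. Across groups the order did not hold, as KO 3 was above Ctrl 2 and Ctrl 3 in both the sum and the ratio. The part of these markers in the ratio was not tested. GC content was 58.1% in Mfng and 59.9% in Rfng, and further apart in other pairs, with 52.6% in Hey1 and 45.9% in Hey2, and 54.5% in Nrarp and 42.9% in Rbpj. With GC offsets the log2 fold changes of those pairs came closer, to 0.32 for Hey1 and −0.25 for Hey2, and to 1.39 for Nrarp and −0.26 for Rbpj. Mfng and Rfng did not come closer, at 1.06 and −0.20 without the offsets and 0.54 and −0.91 with them. Mfng made up 60.8 ± 4.77% of fringe CPM in Ctrl and 76.9 ± 5.52% in KO (SD, n = 3), Rfng 32.5 ± 2.65% and 16.3 ± 6.27%, and Lfng 6.69 ± 2.15% and 6.72 ± 1.61%. Mfng over Lfng overlapped between groups, at 6.11 to 13.1 in Ctrl and up to 15.4 in KO.

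Among the repressors Hey1 over Hey2 was 1.56, 1.16 and 1.79 in Ctrl 1 to 3, against 2.40, 4.01 and 3.02 in KO 1 to 3. Hes1 over Hey2 was 11.3 to 16.1 in Ctrl and 25.6 to 33.4 in KO. Both ratios were higher in all KO libraries, and Hes1 over Hey1 was not, at 8.48 to 9.73 in Ctrl and 8.32 to 13.2 in KO. Nrarp over Rbpj, the feedback gene against the factor that drives it, was 5.45, 2.37 and 5.04 in Ctrl 1 to 3, against 21.2, 16.9 and 15.8 in KO 1 to 3. Groups did not overlap in 5 of the 10 ratios. The share over other pairs of genes was not computed, so this count describes the 10 ratios only. The gene with the larger log2 fold change was always placed on top, which fixes the direction, and the ratios share genes.

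**Figure D4:**
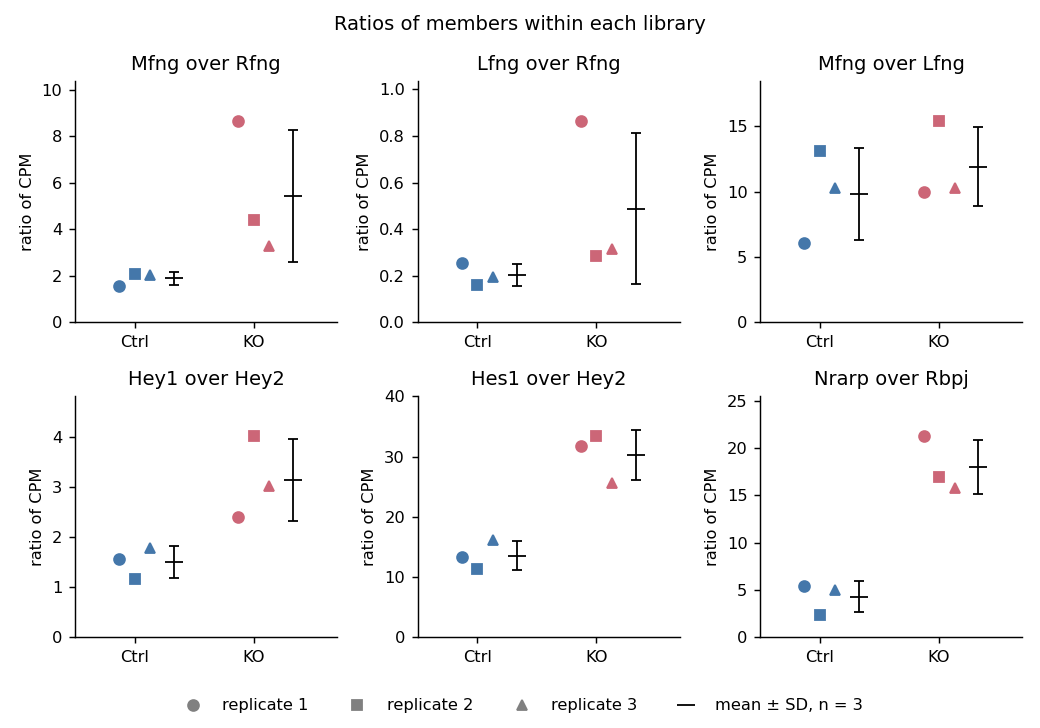
Ratio of CPM between named genes of the same library (vertical axes, from 0), for 3 Ctrl (blue) and 3 KO (red) libraries with mean and SD. Of the 10 ratios formed, the panels show every ratio without overlap and, of those that overlap, only Mfng over Lfng. The KO libraries lie above the Ctrl libraries in all panels except that one. Nrarp over Rbpj runs from 2.37 to 5.45 in Ctrl and from 15.8 to 21.2 in KO.

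Compared per kilobase of transcript, Hes1 was the most abundant, at 132 ± 21.8 CPM per kilobase in Ctrl (SD, n = 3), above Mfng at 70.4 ± 3.84 without overlap. Rfng (33.5 ± 6.74) and Nrarp (31.4 ± 9.37) came next and overlapped each other, followed without overlap by Hey1 (8.87 ± 1.67). Lfng (6.43 ± 2.82), Hey2 (5.63 ± 0.280), Heyl (5.11 ± 1.34) and Rbpj (3.77 ± 0.730) came last, and each neighbour in that order overlapped the next. In KO the order began with Hes1 (203 ± 28.3), Mfng (147 ± 39.4) and Nrarp (90.4 ± 55.7), each overlapping the next. Nrarp was above Rfng (29.2 ± 15.7) without overlap there, and Rbpj was again last (2.36 ± 1.06). Hey1 was the most abundant Hey gene in both groups per kilobase. These levels divide by exonic length, and whether the counts cover exons only is not known from the sources used.

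The rest of the Notch pathway was read from lists of 61 genes, of which 58 were tested. Of these 2 rose and 0 fell, where 10.3% of all genes tested passed, 5.85% higher and 4.44% lower. The median log2 fold change was 0.08, beside 0.03 for all genes tested. Every KO library was above every Ctrl library in 12 of them and below in 8, against 19.0% and 18.9% of all genes tested. Without Ctrl 1, Ctrl 2, Ctrl 3 or KO 2 no gene of the pathway or of the whole table passed, and without KO 1 there were 19 of the pathway, near the 29.7% of all genes that then passed. The 2 that rose with all libraries were ligands, Dll4 (from 103 ± 10.8 to 313 ± 65.0 CPM) and Jag2 (from 20.6 ± 1.25 to 58.5 ± 15.2 CPM), among 9 ligands and receptors with a median of 0.87. Under endothelial scaling the log2 fold changes of Dll4 and Jag2 were 0.26 and 0.12 (adjusted p = 0.543 and 0.797 in the edgeR test), and with GC offsets Jag2 was 0.84 (adjusted p = 0.0734). None of the 9 proteases that cut Notch passed, with Psen2 (0.86, adjusted p = 0.126) and Furin (0.67, adjusted p = 0.152) nearest. Of 4 other enzymes that act on the sugars of Notch (Pofut1, Poglut1, Eogt and B4galt1) none passed the threshold. Pofut1 was at 0.60 (adjusted p = 0.328) and Eogt at 0.52 (adjusted p = 0.406) in the edgeR test.

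Nuclear partners of Rbpj had 0 of 14 past the threshold and a median of −0.17. Their smallest adjusted p were those of Snw1, a coactivator and splicing factor (−0.74, adjusted p = 0.101), and Cir1, a corepressor (−0.94, adjusted p = 0.113). Ubiquitin ligases and adaptors of the pathway had 0 of 13 past it, with Itch, a ligase that marks Notch for removal, at −0.96 (adjusted p = 0.0763) and Lnx1 at −0.86 (adjusted p = 0.113). Other Hes genes and Tle corepressors had 0 of 9 tested past it, with Tle3 at 0.71 (adjusted p = 0.0876) and the repressor Bhlhe40 at 0.65 (adjusted p = 0.0898). At an unadjusted p below 0.05 these 5 lists held 2, 0, 3, 3 and 3 genes, in the order given from proteases to Hes genes, where 30.5% of all genes tested had one. DESeq2 called 0, 0, 0, 1 and 2 of them, beside 22.1% of all genes, and limma-voom 0 in each. The 9 ligands and receptors held more, with 6 at an unadjusted p below 0.05 (Dll4, Jag2 and Notch1 to Notch4). DESeq2 called the same 6 and limma-voom 2, and every KO library was higher in these 6, beside 19.0% of all genes tested. None of these 6 passed under endothelial scaling.

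Endothelial genes that Notch is known to raise and genes that it holds down both included genes that rose. Of 5 genes of the first kind 2 rose and 0 fell (Gja4, a gap junction gene of arteries, at 2.12, and Dll4 at 1.61), with a median of 1.61. Dll4 is the ligand already counted above, and its value is that median. Of 7 tip cell genes of the second kind 2 rose and 0 fell (Pdgfb, a growth factor that recruits pericytes, at 2.69, and the VEGF receptor Flt4 at 1.31), with a median of 1.25. Every KO library was above every Ctrl library in 5 of 5 and 6 of 7 genes, beside 19.0% of all genes tested. The medians of both lists lie near that of the 15 endothelial markers, 1.45. The labels write the recombinase, which only KO pups carry, as Pdgf{beta}CreERT2, and whether its driver is Pdgfb is not settled by that spelling. Its part in the Pdgfb value was not tested. Under endothelial scaling Flt4 was −0.025, Gja4 0.89 (adjusted p = 0.0682) and Pdgfb 1.34, which passed the edgeR test (adjusted p = 0.0140) where 0.425% of genes were called higher.

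The authors' deposited table, made with DESeq2 over transcript entries, gave an adjusted p below 0.05 to 3 of the 9 genes, where 22.2% of entries with a value had one. These were Mfng (log2 fold change 1.16, adjusted p = 0.00308), Nrarp (1.60, adjusted p = 0.00519) and Hes1 (0.71, adjusted p = 0.0474) in the authors' deposited table. DESeq2 on 1 entry per gene called Mfng and Nrarp and not Hes1 (0.65, adjusted p = 0.0784). Mfng and Nrarp were thus called by DESeq2 on entries and on genes, while edgeR and limma-voom (6.09% of genes higher) passed Mfng alone.

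Genes with the pattern most like each member over the 6 libraries were found by Pearson's r of log2 CPM among 12351 genes of at least 5 CPM, as a description. Hey2 was most like Zfp385b, Rbpj most like Hipk3 and Mfng most like Tspan4 (r = 0.999, 0.998 and 0.998). Nrarp was most like Bag1 (r = 0.992), Hes1 most like 4930562F07Rik (r = 0.996), and Hey1 most like Cdkn2b (r = 0.996). Rfng was most like Hdac10 (r = 0.997), Heyl most like Arc (r = 0.989), and Lfng most like Fbxo6 (r = 0.989). All 6 points share their library between the genes compared, and 6 libraries allow many close matches: 32 genes had r above 0.99 with Mfng and 30 with Rbpj.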

How the data were processed

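RNA of CD31-sorted retinal cells was measured in 6 libraries (3 Ctrl, 3 KO), prepared per the labels' protocols from very low input as amplified full-length cDNA without strand marks and read as single 50-base reads. Tools listed in the submitters' processing notes are STAR, Trimmomatic 0.36, deepTools, edgeR and DESeq2, with the build mm10; the counting tool is not given in the sources used here. Per the file headers, the authors deposited raw counts per RefSeq entry, normalized counts (signal: counts divided by 1 size factor per library), RPKM, a length, and the DESeq2 log2 fold change, Wald score, p-value and adjusted p-value. The deposited length lay within 2% of the genomic span for 80.5% of genes, so RPKM was not used. The Ctrl 3 count column carries another number and was matched by the start of its name.

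Per symbol the entry with the longest length was taken. edgeR 4.0.16 (R 4.3.3) fitted KO against Ctrl with TMM, filterByExpr, no covariate, and a two-sided threshold of 0.05 on Benjamini-Hochberg adjusted p over 16217 genes; its fold change estimates were checked on simulated data. The standard error is the log2 fold change divided by the square root of F. Alternatives used DESeq2 1.42.0, limma 3.58.1 (voom), other scalings, GC offsets from GENCODE M21 transcripts (99.2% of tested genes), a replicate block and leaving out each library. Levels per kilobase use the GENCODE exonic length. Exact permutation tests used scipy 1.17.1. The 9 genes and all lists were chosen with earlier results of these data known. Named pathway genes are those past the threshold or, with none, the 2 with the smallest adjusted p of each list.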

Additional observations from a re-analysis of the deposited data

How the results depend on the processing

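The count of genes changed was 1668, and 3556 with DESeq2, 8494 with endothelial scaling, 1 with the replicate block and 2 with the replicate block and GC offsets; without 1 library it ran from 0 to 4927, and 4 of these 6 fits called 0 genes while 3434 to 4005 had an unadjusted p below 0.05. Of the genes called, 56.8% were higher, 44.4% with GC offsets and 0.812% with endothelial scaling. Of the 9 members, 1 passed, 2 with DESeq2, 4 with endothelial scaling, 0 with no filter, GC offsets, the replicate block or that block with GC offsets, and 0 to 3 without 1 library. Of the other pathway genes 2 passed, 9 with DESeq2, 36 with endothelial scaling, 5 with GC offsets, 0 with the replicate block, with or without GC offsets, and 0 to 19 without 1 library.

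Replicate numbers were not taken as pairs: deviations of same-numbered libraries from their group means had correlations of −0.36, 0.07 and −0.25, and no library correlated best with its own number.

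Signs turned with endothelial scaling for Hey1 (−0.84), Hes1 (−0.71), Lfng (−0.80), Mfng (−0.31), Psen2 (−0.43), Furin (−0.72), Pofut1 (−0.68), Eogt (−0.76), Tle3 (−0.64), Bhlhe40 (−0.71) and Flt4 (−0.025), where the median of all genes was −1.32. Heyl, near 0, turned to 0.032 with DESeq2 size factors, 0.029 with the DESeq2 Wald test and 0.0052 with the replicate block, and ran from −0.16 to 0.22 without 1 library (above 0 without Ctrl 1, KO 1 or KO 3). Rfng ran from −0.38 to 0.26 without 1 library, above 0 only without KO 1. Relative to endothelial markers Nrarp ran from −0.39 to 0.33 without 1 library, below 0 without Ctrl 2 (−0.28) or KO 1 (−0.39), and no other of the 9 turned when 1 library was left out or the median of markers was used. The Mfng call was lost with the replicate block (1.03, adjusted p = 0.177) and with that block and GC offsets (0.53, adjusted p = 0.205) in the edgeR test. The cause was not tested. Each member had at least 183 counts in each library.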

Other observations

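Some Hes genes outside the 9 were as abundant as the members in the sorted cells. Hes6, a Hes relative of developing neurons and photoreceptors, was at 441, 240 and 240 CPM in Ctrl 1 to 3, against 167, 272 and 377 CPM in KO 1 to 3. The groups overlapped, and its log2 fold change of −0.17 (adjusted p = 0.786 in the edgeR test) became 0.18 without Ctrl 1 and 0.14 without KO 1. Hes5, a Notch target of progenitors and glia, was at 177, 43.5 and 54.4 CPM in Ctrl 1 to 3, against 65.0, 43.8 and 76.3 CPM in KO 1 to 3. Ctrl 1 alone was high, and the log2 fold change of −0.57 (adjusted p = 0.496 in the edgeR test) became 0.33 without it (adjusted p = 0.570), so neither gene has a settled direction. Both were chosen after their values were seen, and leaving out libraries for them was added after seeing the data. Hes3 and Helt had no count in at least 1 library, and Hes3, Hes7 and Helt were too low to be tested.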
